A study of Mus musculus with 48 samples.

Results

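The proteasome genes of mouse embryonic stem (ES) cells are described here across cell lysates and across the RNA recovered from those lysates with HA-tagged Tnrc6a. They were taken as every gene of the deposited count table whose symbol is Psm, a letter from a to g and a number, without pseudogenes. The rule found 49 of the 20171 genes in the table, and 1 pseudogene row was left out. Of the 49 genes, 46 have a role in the proteasome: 8 subunits of the alpha ring, 7 of the beta ring, 2 inducible beta subunits, 6 ATPases, 3 other subunits of the base, 8 subunits of the lid, 7 assembly chaperones, 4 activator genes and 1 inhibitor. The other 3 (Psmc3ip, Psme3ip1 and Psme2b) match by name only, and they are counted with the 49 but kept out of the roles. All 49 passed the filter on low counts in every comparison.

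The 26S proteasome is the protease that degrades proteins marked with ubiquitin. Its core particle is a barrel of alpha rings, which gate the entrance, and beta rings, which hold the catalytic sites. Its regulatory particle consists of a base, whose ATPases unfold the substrate, and a lid, which removes ubiquitin. Transcription of the subunit genes is raised by the factor Nfe2l1 (Nrf1) when proteasome activity falls short, and by other factors that act on their promoters.

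RNA immunoprecipitation sequencing (RIP-seq) asks which RNAs are recovered with Tnrc6a, a GW182 protein that connects Argonaute proteins with mRNA deadenylation and decay. The 129S6/SvEvTac mES cells all carried a yGlob GFP reporter with T71BS sites and a stable FLAG-Cas9 transgene with blasticidin resistance, and were kept with LIF on gelatin. There were 4 genotypes: untagged cells, cells with an HA-AVI tag on Tnrc6a (HA-Tnrc6a), and HA-Tnrc6a cells labelled Ago2-/- (Ago2KO) or Upf1-/- (Upf1KO). Ago2 is an Argonaute protein, and the helicase Upf1 acts in nonsense-mediated mRNA decay. Each genotype gave 6 input libraries, made from lysate, and 6 immunoprecipitate (IP) libraries, made from HA beads that had received equal amounts of protein, 48 libraries in all. How many clones stand behind a genotype is not stated, so p-values measure the spread between these libraries, which may be partly technical. In bulk RNA, fewer cells of a type and less RNA per cell cannot be told apart.

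Library totals ran from 11471544 to 73845953 counts. Libraries numbered 1 to 3 in each group (the first set) were shallower, with at most 19595405 counts, than those numbered 4 to 6 (the second set), with at least 25724085. Every estimate below is the mean of the 2 sets. ES cell markers were high in the inputs: all 10 (Pou5f1, Nanog, Sox2 and others) had medians of at least 1 CPM (counts scaled to a common library size), and their summed level was 6170 to 7650 CPM. Ago2 mRNA was 205 to 323 CPM in HA-Tnrc6a inputs and 92.8 to 136 CPM in Ago2KO inputs. Upf1 mRNA was 74.4 to 99.6 CPM in HA-Tnrc6a inputs and higher, 122 to 142 CPM, in the inputs labelled Upf1KO. Since a gene-level count does not show whether protein is made, the label of these libraries could not be checked, and "Upf1KO" below means the libraries labelled so.

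In lysates of HA-Tnrc6a cells the constitutive subunits were abundant and the inducible ones scarce. Per kilobase of gene length, the median level was 94.1 CPM for the 7 beta-ring genes, 74.9 CPM for the 6 ATPases, 57.9 CPM for the 8 alpha-ring genes and 51.2 CPM for the 8 lid genes. Assembly chaperones had a median of 12 CPM per kilobase. Psma6, an alpha-ring subunit, was highest at 142 CPM per kilobase (139 to 151 over 6 inputs), followed by Psmb2 at 128 (115 to 148) and Psmc5, an ATPase, at 120 (114 to 128), and the ranges of neighbours in this order overlapped. The lowest level was that of Psmb9, an immunoproteasome subunit induced by interferon, at 0.661 CPM per kilobase (0.481 to 0.878). Psmb10, the other immunoproteasome subunit in the table, was at 11.8, and Psma8, the alpha subunit of the testis proteasome, was at 5.49. Psmf1 (PI31), which inhibits the core particle in vitro, was at 4.27, below every constitutive subunit. The lengths are those of the deposited gene models, so a gene with a long model and a short main transcript is understated.

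Together the 49 genes made up a median of 0.761% of all counts in HA-Tnrc6a inputs (0.745% to 0.779%). Their share was similar in untagged IPs, at 0.698% (0.631% to 0.778%), and lower in each tagged IP, at 0.485% for HA-Tnrc6a, 0.484% for Ago2KO and 0.432% for Upf1KO. The highest share in any tagged IP was 0.521%, so tagged IPs did not overlap with untagged IPs.

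**Figure D1:**
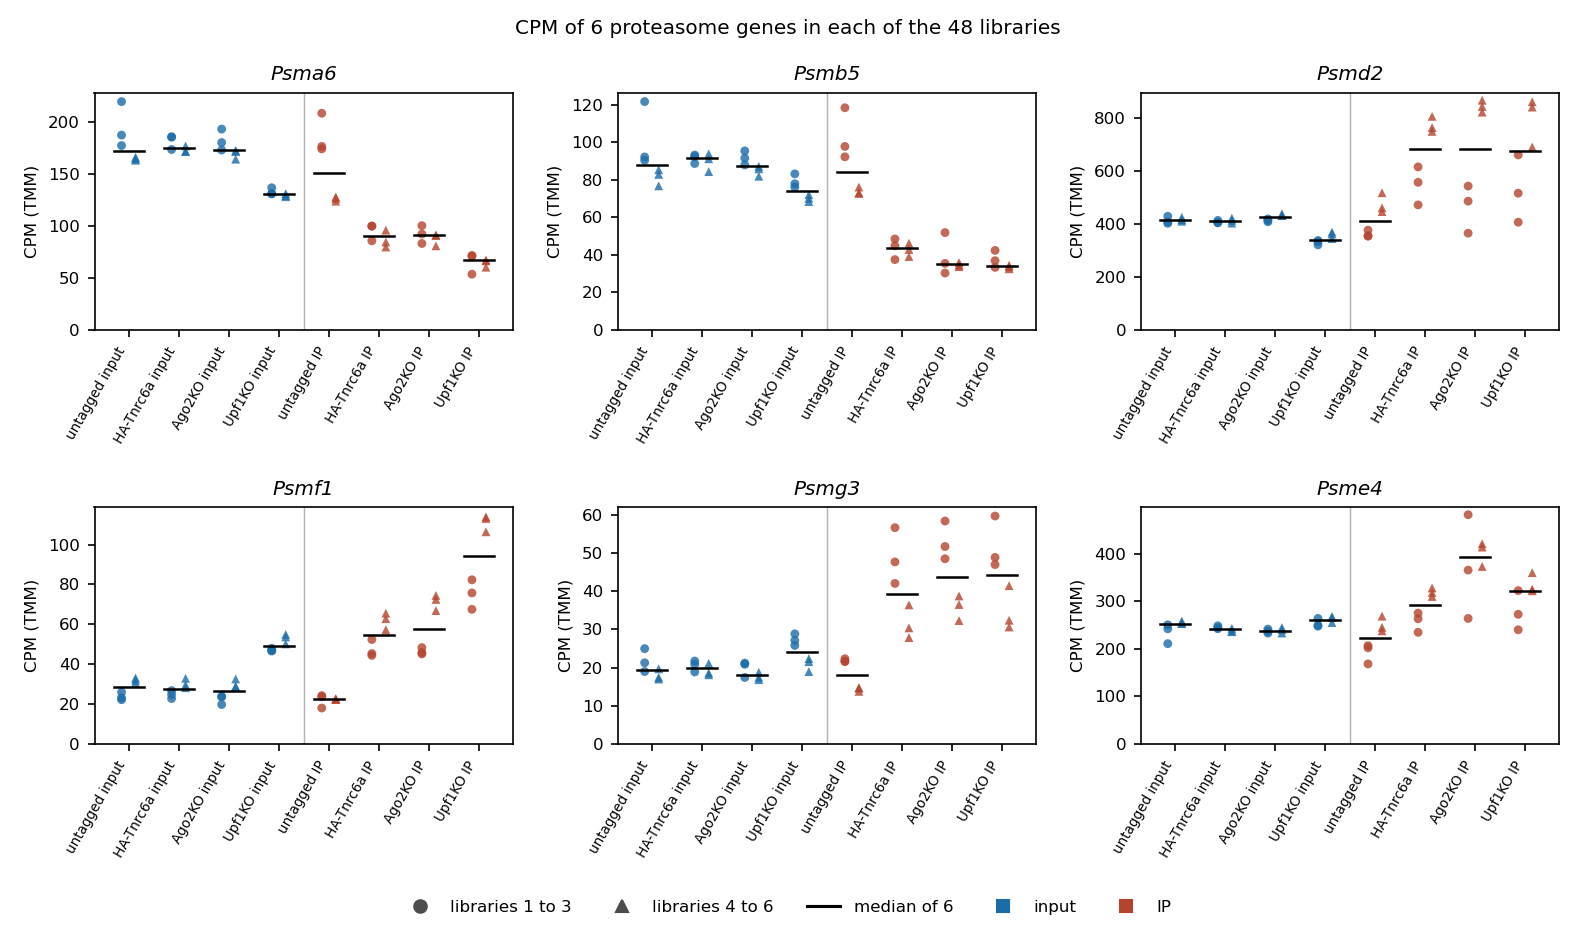
CPM of 6 proteasome genes (vertical axes, linear from 0) in each of the 48 libraries, by genotype and fraction; circles are libraries 1 to 3, triangles libraries 4 to 6 and bars the median of 6. Psma6 and Psmb5 lie lower in the tagged IPs than in the inputs, Psmf1 and Psmg3 higher, and Psmf1 rises from a median of 27.5 CPM in HA-Tnrc6a inputs to 49.1 CPM in Upf1KO inputs.

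The first comparison asked which of these mRNAs were recovered with tagged Tnrc6a beyond what HA beads took up from untagged cells. Most proteasome mRNAs were recovered less than the average mRNA, including every subunit of the core particle. A few genes were recovered more: Psmf1, the assembly chaperone Psmg3, the base subunit Psmd2, the activators Psme4 and Psme3, and the ATPase Psmc1. Of the 49 genes, 46 were called at an adjusted p under 0.05, of which 6 were higher and 40 lower. Over all genes tested 62% were called, 29.8% higher and 32.2% lower. The median log2 enrichment was -0.63 over the 49 genes (-0.67 in the first set, -0.59 in the second) and -0.10 over all 19993 genes. In none of the 49 did the sets differ past the threshold, as 0.365% of all genes did.

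Psmf1 mRNA reached 44.4, 54.8 and 65.6 CPM (lowest, median and highest) in the HA-Tnrc6a IPs and 18, 22.6 and 24.2 CPM in the untagged IPs. The tagged IPs were all higher, while the inputs of both genotypes overlapped at 22.8 to 32.9 CPM and 22.2 to 33.1 CPM. The log2 enrichment of Psmf1 was 1.31 ± 0.10 (SE), a 2.48-fold recovery (edgeR quasi-likelihood test, adjusted p = 7.08e-14). It was 1.04 in the first set and 1.58 in the second (adjusted p of the difference 0.233). Psmg3 encodes a chaperone (PAC3) of alpha-ring assembly. The tagged IPs held 27.9, 39.2 and 56.7 CPM of its mRNA and the untagged IPs 13.8, 18.2 and 22.3 CPM, again with no overlap, and its log2 enrichment was 1.15 ± 0.11 (adjusted p = 6.63e-11).

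Psmd2 (Rpn1), the scaffold of the base that binds ubiquitin receptors, was the most abundant of the enriched members. The tagged IPs had 472, 682 and 806 CPM and the untagged IPs 354, 411 and 518 CPM, with overlapping ranges. Within each set the IPs of the 2 genotypes were apart in the plot by library, and the log2 enrichment was 0.68 ± 0.07 (adjusted p = 2.76e-10). Psme4 (PA200), a nuclear activator, spanned 235 to 329 CPM in tagged IPs and 169 to 269 CPM in untagged ones, a log2 enrichment of 0.41 ± 0.07 (adjusted p = 9.38e-06). Psmc1 (Rpt2), an ATPase that opens the gate, had 0.32 ± 0.07 (adjusted p = 9.16e-05). Psme3 (PA28 gamma) had 0.16 ± 0.06 (adjusted p = 0.0221). Its log2 ratio of IP to input was below 0 in both genotypes, at -0.15 in HA-Tnrc6a and -0.30 in untagged cells. With library totals in place of TMM its enrichment was at -0.0034, a scaling that also moved the median of all genes from -0.10 to -0.25.

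In the core particle, all 8 alpha-ring and all 7 beta-ring mRNAs were lower, with median log2 enrichments of -0.75 and -0.77. Psmb5, the subunit with chymotrypsin-like activity, had 37.4, 43.8 and 48.4 CPM in the tagged IPs and 72.7, 84.1 and 118 CPM in the untagged ones. The 2 groups did not overlap, and the log2 enrichment was -1.0 ± 0.10 (adjusted p = 5.19e-11). Psma7 had -0.95 ± 0.09 (adjusted p = 2.55e-11); its level in untagged IPs, 293 to 375 CPM, was itself above that in untagged inputs, 151 to 241 CPM. The smallest decreases of the core were those of Psma8 at -0.30 and Psmb7, the trypsin-like subunit, at -0.32. The inducible subunits Psmb9 (-0.70 ± 0.27, adjusted p = 0.0234) and Psmb10 (-0.52 ± 0.11) were lower as well, the call of Psmb9 being lost in 5 of 24 fits without 1 library.

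In the regulatory particle, 5 of 6 ATPases were lower, with Psmc4 lowest at -0.78. Of the other base subunits, Psmd1 and the ubiquitin receptor Psmd4 were lower at -0.76 and -0.85, opposite to Psmd2. Of the 8 lid genes 7 were lower, from -0.93 for Psmd12 to -0.38 for Psmd3, and Psmd14, the lid's deubiquitinase, was at -0.80. Psmd7, its inactive partner, did not pass the test (-0.07 ± 0.07, adjusted p = 0.356). Thus genes of 1 subcomplex did not all move alike.

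Among the 7 assembly chaperones 5 were lower, Psmg3 was higher and Psmd9 did not pass (0.08 ± 0.09). Psmd10 (gankyrin), which chaperones an ATPase of the base, was at -0.99 ± 0.12 (adjusted p = 1.80e-08). Among the activators, Psme1 and Psme2, the subunits of the interferon-inducible PA28, were lower at -1.02 ± 0.09 and -0.62, opposite to Psme3 and Psme4. Psme1 had 17.5, 23.5 and 27.5 CPM in the tagged IPs and 45.8, 52.3 and 62.6 CPM in the untagged ones, with no overlap.

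**Figure D2:**
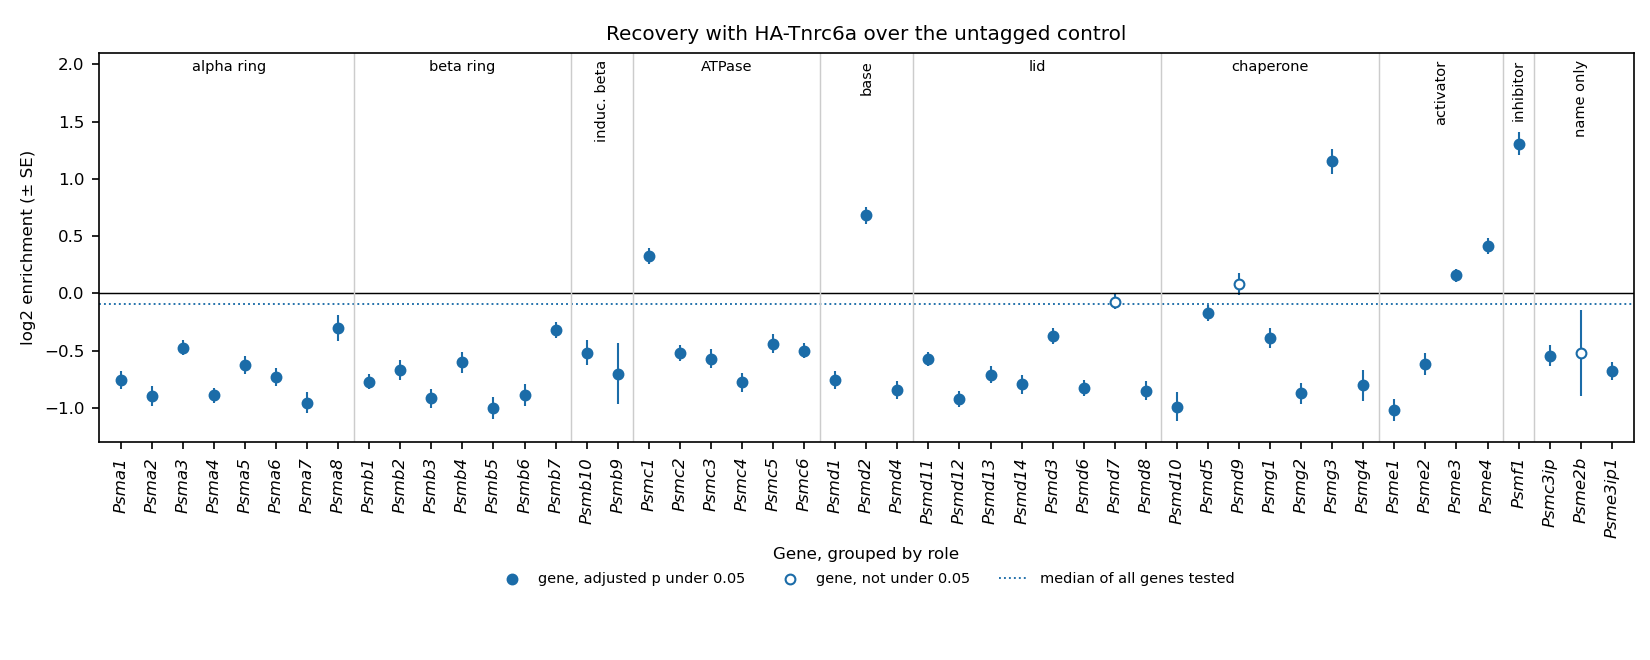
Log2 enrichment in HA-Tnrc6a over untagged (vertical axis, ± SE, 6 libraries per genotype and fraction) of each of the 49 genes, grouped by role; filled points passed an adjusted p of 0.05 and the dotted line is the median of all genes. The 15 genes of the alpha and beta rings all lie below 0, and Psmf1 and Psmg3 lie above 1.

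Partners of the proteasome outside the Psm symbols went in both directions. Of 11 measured partner genes (subunits, chaperones and associated enzymes named otherwise), 4 were higher and 6 lower. Over all genes tested 29.8% were higher and 32.2% lower. The lid subunit Sem1 was at -0.98 and the maturation factor Pomp at -0.72, close to the values of the core genes. Zfand2a and Zfand5, zinc finger proteins that bind the proteasome, were higher at 2.08 ± 0.12 and 1.04 ± 0.08. Of 9 genes that control proteasome gene expression or turnover, 5 were higher and 1 lower, among them Nfe2l1 at 0.28 and Fbxw7, a ubiquitin ligase receptor, at 1.77. Rps27a, which encodes a ribosomal protein fused to ubiquitin, was lower at -0.95 ± 0.08 (adjusted p = 5.26e-12).

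Gene length moved with the enrichment: over the 49 genes Spearman's rho between the 2 was 0.304, and over all 19993 genes it was 0.29. The median length was 3494 bases for the 6 higher genes and 2628 bases for the 40 lower ones, and the part of length in the result was not tested. Reads of 15 members may be shared with a gene that overlaps them, among them Psmf1 with Tmem74b, Psme4 with Erlec1 and Psme1 with Emc9, because it is not given in the sources used here whether counting used strand.

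What the beads took up without a tag was compared next, as untagged IP against untagged input. Proteasome mRNAs were found in both fractions at similar levels, with a median log2 difference of -0.01 (all genes -0.03). Of the 49 genes, 12 were higher and 11 lower in the IP, and 35.7% of all genes were called (18% higher, 17.8% lower). Psma7 stood highest at 0.77 ± 0.06 (adjusted p = 2.17e-09), followed by Psmg2, a chaperone of the alpha ring, at 0.44 and Psmd10 at 0.40. Psmf1 was lowest at -0.32 ± 0.07 (adjusted p = 0.00154), the opposite side to its recovery with the tag. The enrichment given above subtracts this same untagged ratio, so for each gene the values of the 2 comparisons are not independent. With library totals in place of TMM, which moved the median of all genes to -0.20, 5 were higher and 29 lower. In libraries 1 to 3 alone 2 genes were called. The sets differed for 5 members, among them Psmg2 (0.07 and 0.81), and for 2.86% of all genes.

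**Figure D3:**
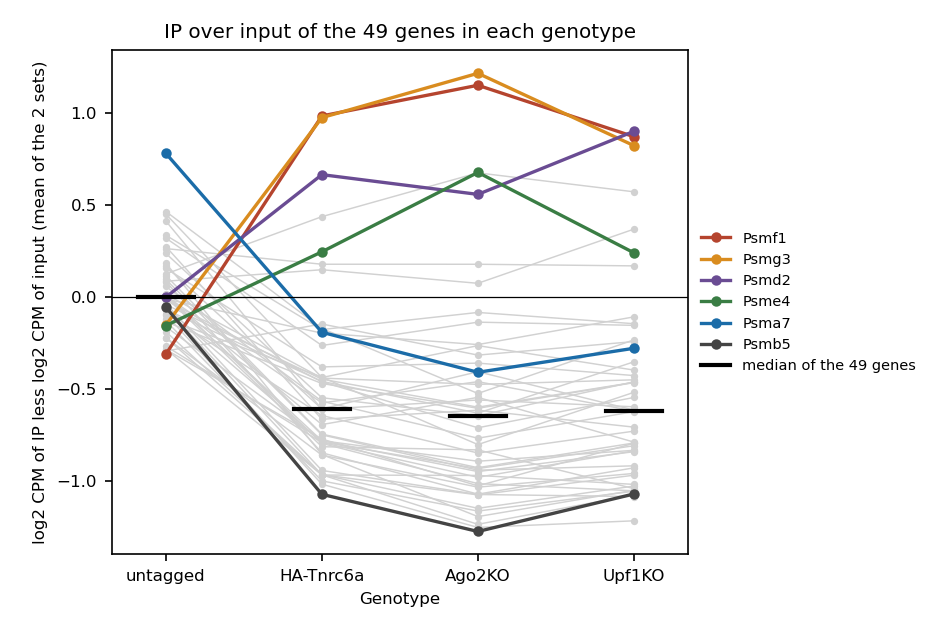
Log2 ratio of IP to input (vertical axis, mean of both sets) of the 49 genes in each genotype; each line is a gene, coloured for 6 named genes, and black bars are medians. The medians are -0.0035 in untagged cells and -0.61, -0.65 and -0.62 in HA-Tnrc6a, Ago2KO and Upf1KO cells, while Psmf1, Psmg3 and Psmd2 lie above 0 in each tagged genotype.

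In the 3 tagged genotypes 42 of the 49 ratios of IP to input were below 0, against 26 in untagged cells. The comparisons with the knockouts share the HA-Tnrc6a libraries, so their values are given side by side and are not independent.

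Whether recovery with Tnrc6a changed without Ago2 was asked by setting the IP-to-input ratio of Ago2KO cells against that of HA-Tnrc6a cells. Tnrc6a mRNA was itself higher in Ago2KO inputs (97.3 to 130 CPM) than in HA-Tnrc6a inputs (66.6 to 91.5 CPM). In the IPs it was at 11200 to 58800 and 8840 to 34200 CPM. The part of Tnrc6a level in the recovery was not tested. The share of proteasome genes called was near that of all genes, and no call passed 0.45 in size. Psme4 (0.45 ± 0.11, adjusted p = 0.00478) and Psmc1 (0.24 ± 0.07, adjusted p = 0.00996) rose, and both had also been enriched in HA-Tnrc6a cells. In all, 10 of 49 members passed, 2 higher and 8 lower, where 21.3% of all genes did (9.09% higher, 12.3% lower). The median was -0.14 over the 49 genes and -0.04 over all genes.

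Psme4 was at 264, 394 and 483 CPM in Ago2KO IPs and 235, 293 and 329 CPM in HA-Tnrc6a IPs, overlapping in part, while its inputs were at 233 to 245 CPM and 236 to 249 CPM. The decreases were those of Psma8 (-0.39 ± 0.11, adjusted p = 0.0085), Psme1 (-0.36 ± 0.09, adjusted p = 0.00377), Psmb6 (the caspase-like subunit, -0.28 ± 0.08), Psma3, Psma2, Psmd6, Psmd4 and Psme3. Psmf1 (0.16 ± 0.08, adjusted p = 0.178), Psmg3 (0.24 ± 0.10, adjusted p = 0.108) and Psmd2 (-0.11 ± 0.09, adjusted p = 0.447) did not pass. The partner Zfand5 rose by 1.21 ± 0.08 (adjusted p = 6.94e-14), with 90.9 to 121 CPM in HA-Tnrc6a IPs and 192 to 255 CPM in Ago2KO IPs, which did not overlap, and Zfand2a fell by 0.50 ± 0.11. The count of 10 rested on single libraries: it was 22 without HA-Tnrc6a IP 1, 21 without Ago2KO IP 2 and 6 without any 1 of HA-Tnrc6a input 2, HA-Tnrc6a IP 2, Ago2KO inputs 4 and 5 and Ago2KO IP 5. It was 0 in libraries 1 to 3 alone.

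The same question for Upf1 gave no call. By edgeR 0 of 49 genes passed, by DESeq2 0 as well, and 6 had an unadjusted p under 0.05, where 4.49% of all genes passed the adjusted threshold (2.92% higher, 1.57% lower). The largest values were those of Psmd2 (0.30 ± 0.12, adjusted p = 0.157) and Psmg4, a chaperone, (-0.21 ± 0.12, adjusted p = 0.396), and the lowest adjusted p was 0.0648, for Psmd9. The median over the 49 genes was 0.0064, and the median SE was 0.0793. Among list genes, 0 of 11 partners, 0 of 9 control genes and 1 of 11 ubiquitin and shuttle genes passed. That gene was Ufd1, a cofactor of the segregase Vcp, which rose by 0.33 (adjusted p = 0.0037). Without HA-Tnrc6a IP 1 there were 2 calls, and without HA-Tnrc6a IP 3 or Upf1KO IP 1 there was 1 in each case.

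Ago2KO and Upf1KO recovery were also set against each other directly. Psme4 (0.42 ± 0.14, adjusted p = 0.036), Psmg3 (0.35 ± 0.10, adjusted p = 0.00681), Psmf1 (0.24 ± 0.07, adjusted p = 0.0118) and Psme3ip1 were higher in Ago2KO, and 9 genes were lower, with Psmd2 at -0.39 ± 0.14 (adjusted p = 0.0485) and Psmd9 at -0.33 ± 0.08 (adjusted p = 0.000865). These 13 of 49 compare with 24.4% of all genes (10.9% higher, 13.5% lower). Psmf1 had more mRNA in the Upf1KO than in the Ago2KO IPs, at 67.5 to 114 CPM and 45.1 to 74.5 CPM, and the IPs compared without inputs gave -0.69. The Psmd2 call was lost in 21 of 24 fits without 1 library (it passed without Ago2KO IP 3, Upf1KO IP 1 or Upf1KO IP 4), in each set alone, with library totals (adjusted p = 0.145), with no count filter and for IPs without inputs, and that of Psme4 in 6 of 24. The count was 8 without Ago2KO input 1 and 3 in libraries 1 to 3 alone. The split was 5 higher and 5 lower with no filter on low counts, and 6 higher and 3 lower with library totals.

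Lysate levels were then compared between Upf1KO and HA-Tnrc6a inputs. Most proteasome mRNAs were lower by a small amount in Upf1KO lysates, while the inhibitor Psmf1 was 1.83-fold higher. Of the 49 genes 38 passed, 6 higher and 32 lower, where 58.6% of all genes passed, 29.5% higher and 29% lower. The median log2 change was -0.15 over the 49 genes (-0.13 and -0.15 in the 2 sets) and -0.02 over all 19444 genes. Of the 49 genes, 29 were lower in both sets with no overlap of 3 libraries against 3, which held for 16.9% of all genes, and 4 (Psmc3ip, Psmd7, Psmd8 and Psmf1) were higher, which held for 18.7%. The sets differed for 4 members and for 11.6% of all genes: the first and second set gave 0.27 and 0.12 for Psmd7, -0.10 and 0.26 for Psmd10, -0.08 and -0.24 for Psma7, and -0.27 and -0.48 for Psmg2.

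Psmf1 was at 46.6, 49.1 and 54.9 CPM in Upf1KO inputs and at 22.8, 27.5 and 32.9 CPM in HA-Tnrc6a inputs, with no overlap. Its log2 change was 0.87 ± 0.04 (adjusted p = 1.13e-22). Untagged inputs (22.2 to 33.1 CPM) and Ago2KO inputs (19.8 to 32.6 CPM) lay in the range of HA-Tnrc6a inputs or just beside it, so the Upf1KO inputs were above all 18 others. Psmg3 rose by 0.27 ± 0.05 (adjusted p = 4.51e-05), the lid subunits Psmd8 and Psmd7 by 0.22 and 0.19, and Psme4 by 0.10 ± 0.02. Psmc3ip, a recombination factor that matches by name only, rose by 0.24 ± 0.05 (adjusted p = 2.38e-05).

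In the core particle 6 of 8 alpha-ring and 6 of 7 beta-ring genes fell, and none rose. Psma6 was at 128, 131 and 137 CPM in Upf1KO inputs and 172, 176 and 186 CPM in HA-Tnrc6a inputs, with no overlap, and fell by 0.43 ± 0.03 (adjusted p = 7.76e-20). Psmb4 and Psmb2 fell by 0.32 each, and Psmb5 by 0.28 ± 0.03, from 84.3 to 93.7 CPM down to 68.3 to 83.1 CPM. Psma3, Psma8 and Psmb6 did not pass. The immunoproteasome genes Psmb9 and Psmb10 fell by 0.50 ± 0.15 (adjusted p = 0.00512) and 0.47 ± 0.06 (adjusted p = 1.41e-09), from levels that were already low.

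In the regulatory particle 5 of 6 ATPases, 2 of 3 other base subunits and 5 of 8 lid genes fell. Psmd2 fell by 0.25 ± 0.02 (adjusted p = 3.80e-13), from 403 to 421 CPM down to 321 to 369 CPM, with no overlap. The alpha-ring chaperones Psmg1 and Psmg2 fell by 0.41 ± 0.03 (adjusted p = 1.79e-15) and 0.38 ± 0.04, opposite to Psmg3, which works with Psmg4 in the same assembly step. Psmg4 fell by 0.19 ± 0.06 (adjusted p = 0.00255).

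Genes that control proteasome gene expression or turnover went in both directions, with more called higher than lower. Of 9 control genes 6 rose and 2 fell, and of 11 partners 3 rose and 7 fell. Over all genes 29.5% rose and 29% fell. From HA-Tnrc6a to Upf1KO inputs, the median level of Btrc went from 33.4 to 41.5 CPM. That of Fbxw7 went from 49 to 43.6 CPM and that of Syvn1 from 33.6 to 27 CPM. Nfe2l1 was at 159, 215 and 283 CPM in Upf1KO inputs and 102, 141 and 177 CPM in HA-Tnrc6a inputs, overlapping across the sets, and rose by 0.64 ± 0.03 (adjusted p = 1.03e-25, 0.60 and 0.67 in the 2 sets). Ddi2, the protease that activates the Nfe2l1 protein, rose by 0.55 ± 0.03 (adjusted p = 5.05e-24), and Vcp, the segregase that extracts it from the membrane, by 0.27. Ngly1, which deglycosylates it, was at 0.02 (adjusted p = 0.846). Ufd1, a cofactor of Vcp, rose by 0.70 ± 0.04 (adjusted p = 1.25e-21), and Rps27a fell by 0.34 (adjusted p = 8.26e-17).

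**Figure D4:**
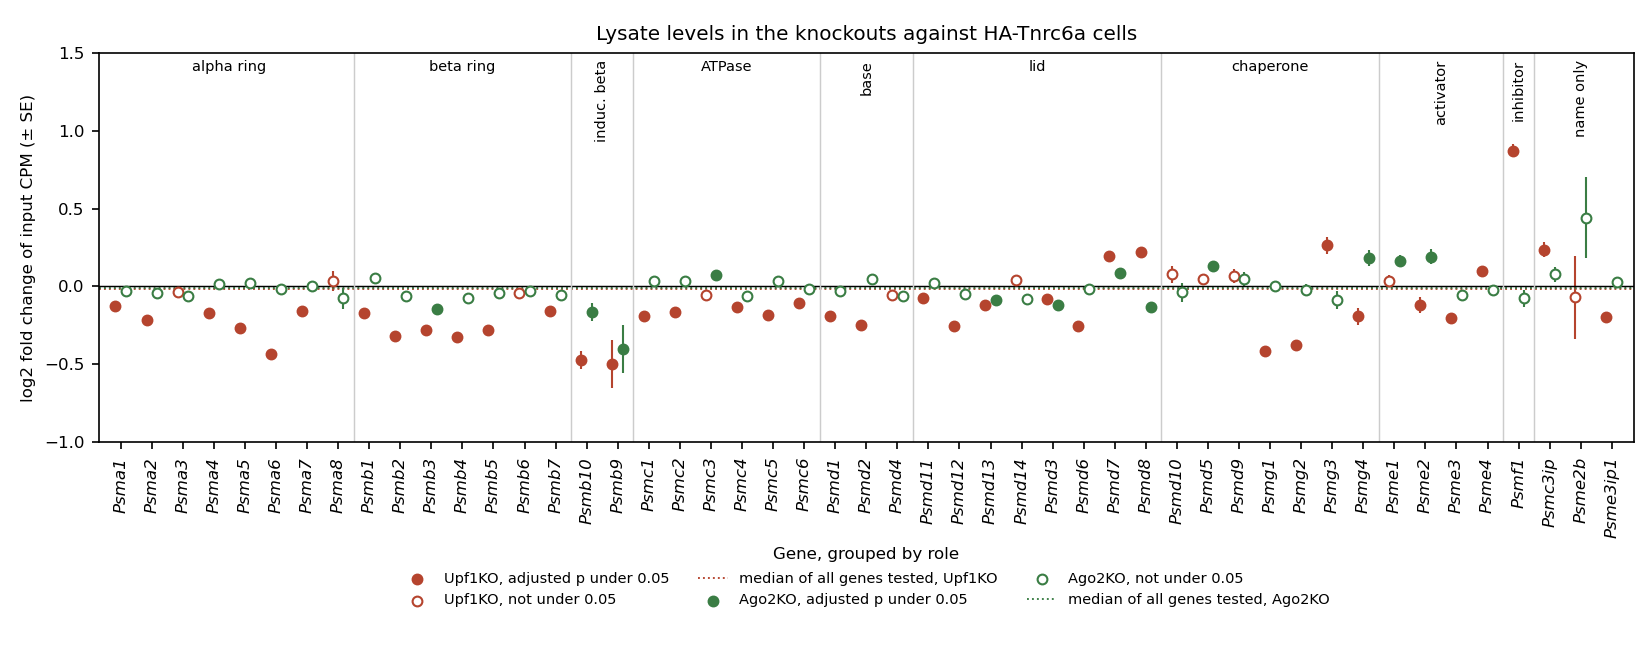
Log2 fold change of input CPM (vertical axis, ± SE, 6 libraries per genotype) of each of the 49 genes in Upf1KO and in Ago2KO against the same HA-Tnrc6a inputs, grouped by role; filled points passed an adjusted p of 0.05. Most Upf1KO points lie between 0 and -0.5 with Psmf1 at 0.87, and Ago2KO points run from -0.40 (Psmb9) to 0.44 (Psme2b, not called), with a median of -0.02.

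Some marker lists moved with this comparison too. The summed level of the 10 ES cell markers was 6170 to 6390 CPM in Upf1KO inputs and 6850 to 7260 CPM in HA-Tnrc6a inputs, with 6 lower and 2 higher. The neural list summed to 47.5 to 64.4 CPM and 76.8 to 85.1 CPM, the endoderm list to 7.33 to 42 CPM and 13.9 to 20.6 CPM, the mesoderm list to 9.08 to 17.9 CPM and 6.89 to 8.39 CPM, and the fibroblast list to 27.1 to 36.7 CPM and 28.2 to 35.2 CPM. Of 3 neural markers 1 was lower (set medians 0.0027 and -0.73), and of 4 mesoderm markers 2 were higher. Of 4 endoderm markers 1 was higher and 2 lower, and of 3 fibroblast markers 1 was higher and 1 lower. Most of the neural sum was Tubb3 (34.5 to 58.5 and 61.1 to 78.4 CPM). Most of the mesoderm sum was Eomes (7.33 to 14.8 and 4.85 to 6.4 CPM). The endoderm markers moved in opposite directions in the 2 sets (median log2 change -1.24 and 0.59), and the sets differed for 4 of 4. The fibroblast sums of the 2 genotypes overlapped. The part of these lists in the proteasome result was not tested.

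In Ago2KO against HA-Tnrc6a lysates, of 49 genes 6 were higher and 6 lower, where 30.9% of all genes passed (15.7% higher, 15.2% lower), and the median was -0.02. Psme2 and Psme1, the PA28 subunits, rose by 0.19 ± 0.05 (adjusted p = 0.00243) and 0.17 ± 0.04 (adjusted p = 0.000469), and the chaperone Psmg4 by 0.18 ± 0.05. Psme1 was at 40.8 to 57.8 CPM in Ago2KO inputs and 38.2 to 46.5 CPM in HA-Tnrc6a inputs. The decreases were those of Psmb9 (-0.40 ± 0.15, adjusted p = 0.0432), Psmb10 (-0.16 ± 0.06), Psmb3 (-0.14 ± 0.03), Psmd8 (-0.13 ± 0.03), Psmd3 and Psmd13. No alpha-ring gene passed. In both sets Psmd3 and Psmd8 were lower (6.61% of all genes) and Psme1 and Psme2 higher (8.43%) with no overlap, and the sets differed for 0 members and 5.94% of all genes. The count was 3 in libraries 1 to 3 alone and 3 with all 48 libraries in 1 fit, and library totals gave 5 higher and 12 lower. The calls of Psmb9 and Psmb10 were lost without 1 library in 7 and 5 of 12 cases. Marker lists moved with this comparison: 4 of 4 endoderm markers were lower (summed to 4.52 to 5.12 CPM in Ago2KO and 13.9 to 20.6 CPM in HA-Tnrc6a inputs) and 3 of 3 fibroblast markers (20.5 to 29.5 and 28.2 to 35.2 CPM), 3 of 3 neural markers were higher (102 to 110 and 76.8 to 85.1 CPM), and of 10 ES cell markers 7 were higher and 1 lower (7160 to 7650 and 6850 to 7260 CPM). Of the 4 mesoderm markers 0 passed (5.53 to 7.74 and 6.89 to 8.39 CPM), and the part of these lists in the proteasome result was not tested.

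Set directly against Upf1KO inputs, Ago2KO inputs had higher levels of 32 proteasome genes and lower levels of 7, where 62.3% of all genes passed (31.4% higher, 30.9% lower). Psma6 was higher by 0.42 ± 0.03 (adjusted p = 7.97e-19), Psmg1 by 0.42 ± 0.04 and Psmg4 by 0.38 ± 0.06. Psmf1 (-0.94 ± 0.04, adjusted p = 7.01e-25), Psmd8 (-0.35 ± 0.03) and Psmg3 (-0.35 ± 0.06) were lower. All 6 ATPases and 6 of 7 beta-ring genes were higher, and the median was 0.14 over the 49 genes and 0.02 over all genes. In both sets 25 genes were higher and 6 lower with no overlap, against 19% and 20.4% of all genes, and the sets differed for 2 members (Psmb10, 0.11 and 0.51, and Psma8, -0.36 and 0.15) and 13.1% of all genes. With library totals 25 were higher and 12 lower. Here too the marker lists moved, and their part in the result was not tested: 3 of 3 neural markers were higher (median log2 difference 1.01), 7 of 10 ES cell markers higher and 1 lower (0.29), 3 of 3 endoderm markers tested lower (-2.31), 2 of 2 fibroblast markers lower (-0.41) and 2 of 4 mesoderm markers lower (-0.58).

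Untagged and HA-Tnrc6a inputs served as the control for the tag. Of 49 genes 3 passed, where 15.4% of all genes did (7.67% higher, 7.74% lower). Psma8 was lower in untagged cells by 0.56 ± 0.07 (adjusted p = 1.84e-06), at 6.72, 9.53 and 11.9 CPM against 10.6, 13.7 and 16.6 CPM, and it alone did not overlap within either set (3.65% of all genes were lower and 4.04% higher in this way). Psmg2 (-0.13 ± 0.04, adjusted p = 0.0474) and Psme1 (0.13 ± 0.04, adjusted p = 0.0463) lay just past the threshold. The sets differed for Psmb10 (0.11 and -0.40) and for 3.4% of all genes. The count was 1 without any 1 of HA-Tnrc6a inputs 1, 2, 4, 5 and 6 or untagged input 5, and 9 in libraries 4 to 6 alone.

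Over the 48 libraries, with inputs and IPs pooled, most members varied together. For each gene the log2 CPM was set against the mean of the other members, both centred within each set. Pearson's r was at least 0.8 for 33 genes and below 0 for 7, namely Psmd7, Psmd9, Psmc1, Psmd2, Psme4, Psmf1 and Psmg3. These are descriptions over libraries that share genotype, fraction and set. The same 7 genes were the members with a log2 ratio of IP to input above 0 in HA-Tnrc6a cells, from 0.15 for Psmd9 to 0.98 for Psmf1. The values of r thus include the difference between inputs and tagged IPs. Whether members vary together within inputs or within IPs was not tested. On the same centred values, the genes outside the members most like the mean of the 49 were Kars (r = 0.989), Rpl7a, Eif3g, Eif3k and Cdc37, with r of at least 0.986 each.

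Because more members were lower (32) than higher (6) in the Upf1KO inputs, the promoters of the members were searched for 2 motifs. A RefSeq promoter (GRCm38.p6) was at hand for 41 of the 49, and the 250 bases before the start were read on both strands. TGACNNNGC, the core of the antioxidant response element that Nfe2l1 and related factors bind, was in 5 of 41 (12.2%) and in 11.5% of 27025 genes. CCAAT, which the factor NF-Y binds, was in 36.6% and 37.5%. Among the 27 genes with a promoter that fell in Upf1KO inputs, 3 held TGACNNNGC (Psmb5, Psmc6 and Psmd12), and of the 5 that rose, 0 did. The 100 bases before the start are shown for a core gene that holds TGACNNNGC and fell, for a chaperone that holds it and did not pass, and for the chaperone Psmg3, which rose and does not hold it. Capitals mark the match. They lie on chr14:54617996-54618095 (minus strand), chr5:123228090-123228189 (plus) and chr5:139826895-139826994 (minus), immediately upstream of each gene.
Psmb5: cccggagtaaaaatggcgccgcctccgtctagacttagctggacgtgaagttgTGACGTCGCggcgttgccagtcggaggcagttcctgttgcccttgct
Psmd9: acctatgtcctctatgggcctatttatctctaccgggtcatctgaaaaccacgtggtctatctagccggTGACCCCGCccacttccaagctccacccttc
Psmg3: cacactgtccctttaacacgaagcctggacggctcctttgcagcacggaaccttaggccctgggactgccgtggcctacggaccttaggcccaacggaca
A match is only a run of letters in this window, and the share of members that hold either motif lay within 1 percentage point of that of all genes.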

How the data were processed

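RNA of 48 libraries was analysed from 1 deposited table of raw counts per gene, made by the authors with no normalization. Per the submitters' processing notes, bcl2fastq 2.20 and STAR 2.7.3a were used with GRCm38 and mm10; the annotation and the strand setting are not given in the sources used here. A further 48 columns per sample were not used. The deposited gene length in bases served for levels per kilobase. Header numbers 1 to 6 do not name the experiment (3 or 4) of the labels, so numbers 1 to 3 and 4 to 6 were fitted as sets.

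Counts were tested with edgeR 4.0.16 (R 4.3.3, limma 3.58.1): only the groups of a comparison, 1 coefficient per group and set, TMM scaling, filterByExpr with a minimum count of 10, robust quasi-likelihood F-test (two-sided), contrasts averaged over the sets, Benjamini-Hochberg over all genes tested, threshold 0.05. The SE is the log2 change over the square root of F. Enrichment and recovery are a log2 IP-to-input ratio less that of another genotype. CPM uses TMM over all libraries, and log2 CPM for correlations a prior count of 2. On simulated counts for the enrichment (19672 genes), 100% of genes changed by 1 log2 unit and 86% to 88% of those changed by 0.5 were called. The changed genes were drawn only from well-counted genes, and apart from the change each gene had 1 mean level in all groups and sets. These rates do not cover low-count members such as Psmb9 and Psme2b.

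The members, gene lists and comparisons were chosen with earlier results of these data known. Genes to name in each comparison were chosen by rule. Up to 3 members per direction had the largest change among those called, of 1 sign in both sets, at an average log2 CPM no lower than 3. Further members were taken by their role. Up to 6 list genes had the largest change among those called, with no filter on sign or level. Pomp, Adrm1, Nfe2l1, Ddi2 and Ngly1 were list genes chosen whether called or not, and a few other list genes are given as well. A list of ubiquitin and shuttle genes is not reported here in full. Alternatives were RLE size factors, library totals, no count filter, DESeq2 1.42.0, a replicate block, each set alone, all libraries in 1 fit, IPs without inputs, and leaving out each library. Counting error follows from the library totals; the counts are of reads, not of separate molecules. No 2 libraries of the same group and set agreed within counting noise (chi-square per degree of freedom 1.93 to 34.1). Libraries of different sets were not compared in this way.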

Additional observations from a re-analysis of the deposited data

Results flagged for a closer look

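For 14 members whose levels are given or plotted, the 112 groups of 6 libraries were searched for a library far from the other 5. Dixon's test was used at 95%, which chance passes in about 1 of 20 groups if the 6 libraries share 1 level. The 2 sets can differ in level, as Psmd2 did in HA-Tnrc6a IPs (472 to 615 and 749 to 806 CPM). That rate may therefore not hold here. There were 8 values past the test, all in libraries numbered 1 or 2. Untagged input 1 held 4 of them: Psmb5 at 122 CPM (next 92.1), Psmb6 at 229 CPM (next 185), Psmc1 at 218 CPM (next 199) and Psme4 at 211 CPM (next 242). Untagged IP 1 had Psma7 at 375 CPM (next 308) and Psmf1 at 18 CPM (next 22.3). Ago2KO IP 2 had Psmb5 at 51.8 CPM (next 35.8), and Upf1KO input 2 had Psma6 at 137 CPM (next 131).

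The effect differed between libraries 1 to 3 and libraries 4 to 6 in 12 of 441 tests of a member in a comparison (interaction in the same fit, adjusted over all genes). In untagged IP against input, the first set less the second was -0.74 for Psmg2, -0.38 for Psmc6, -0.37 for Psmd12, -0.59 for Psmd1 and -0.37 for Psmd2, and Psmd1 and Psmd2 had opposite signs in the sets (-0.14 and 0.46, -0.19 and 0.18). In Upf1KO against HA-Tnrc6a inputs it was 0.15 for Psmd7, -0.36 for Psmd10, 0.16 for Psma7 and 0.21 for Psmg2. Psmd10 changed sign there (-0.10 and 0.26). In Ago2KO against Upf1KO inputs it was -0.40 for Psmb10 and -0.52 for Psma8, and in untagged against HA-Tnrc6a inputs 0.50 for Psmb10. Over all genes 11.6% differed between the sets in Upf1KO inputs and 2.86% in untagged IP against input.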

How the results depend on the processing

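The call counts for enrichment (44 to 46 when each library was left out), Upf1KO inputs (36 to 39) and Ago2KO against Upf1KO inputs (38 to 41) stayed within 1.5 times under every alternative run. Elsewhere counts moved. For Ago2KO recovery (10) DESeq2 gave 16, libraries 1 to 3 alone 0, IPs without inputs 21, and leaving out a library 6 to 22. For Upf1KO recovery (0) IPs without inputs gave 24 and leaving out a library 0 to 2. For Ago2KO against Upf1KO recovery (13) libraries 1 to 3 alone gave 3, IPs without inputs 26 (17 higher), and leaving out a library 8 to 13. Untagged IP against input (23) had 2 in libraries 1 to 3 alone, and 17 to 23 when a library was left out. Ago2KO inputs (12) had 3 in libraries 1 to 3 alone, 3 with all 48 libraries in 1 fit, and 10 to 15 when a library was left out. Untagged inputs (3) had 1 in libraries 1 to 3 alone, 9 in libraries 4 to 6 alone, 1 in the fit of all 48, and 1 to 4 when a library was left out. Fits of 1 set hold fewer samples; for the other settings the cause was not tested. IPs compared without inputs carry the lysate change.

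Signs turned for Psme3 enrichment (-0.0034 with library totals), Psmc2 and Psmd1 in untagged IP against input (-0.024 and -0.012 with library totals, Psmd1 also -0.14 in libraries 1 to 3 alone), and, for IPs without inputs, Sel1l in Ago2KO recovery (0.023) and Psmf1 and Nfe2l1 in Ago2KO against Upf1KO recovery (-0.69 and -0.43). Of 1401 other values of 167 named results, 1233 kept direction and call, 161 lost the call and 7 turned; of 2784 values with a library left out, 2528 kept both, 256 lost the call and 0 turned.

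Whether header numbers pair the libraries could not be settled. Deviations of same-numbered libraries correlated at a mean r of 0.0108 over 168 pairs (highest 0.193). Differently numbered libraries gave -0.0054 over 336 pairs (highest 0.0928). For input and IP of a genotype the mean r was 0.0203 over 24 same-numbered pairs (highest 0.167) and -0.0101 over 48 others (highest 0.0633). A mean r near 0 does not exclude that some libraries were paired. With the number as a replicate block, counts were 20 for Ago2KO inputs, 15 for Ago2KO recovery, 1 for Upf1KO recovery and within 1.5 times of the count without the block in all others.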
